A study of Homo sapiens with 6 samples.

Results

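The mRNAs of CREB1, CREM, ATF1, the CREB-regulated transcription coactivators CRTC1, CRTC2 and CRTC3, the salt-inducible kinases SIK1, SIK2 and SIK3, and the acetyltransferase CREBBP were followed in *RBM12*-depleted human neurons with and without isoproterenol. They are 10 of the 19823 genes in the expression table, chosen by gene name, and all 10 were among the 18130 genes abundant enough to be tested. The data are poly(A) RNA-seq profiles of 6 samples of glutamatergic excitatory neurons obtained from the induced pluripotent stem cell (hiPSC) line WTc11. They form 2 groups, 3 untreated samples and 3 treated with isoproterenol, a catecholamine agonist that raises cAMP, given at a dose and for a time that the labels do not state. All 6 samples carried the *RBM12* knockdown, so the comparison asks how these genes respond to the agonist when RBM12, an RNA-binding protein, is depleted. According to the study's methods, the line is clonal and expresses NGN2 from a doxycycline-inducible promoter to drive glutamatergic differentiation, as well as dCas9-KRAB for gene silencing, and the neurons came from the parental hiPSCs.

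In the textbook pathway, cAMP activates protein kinase A, which phosphorylates CREB1 and its relatives CREM and ATF1 and so lets them recruit the acetyltransferases CREBBP and EP300 to cAMP response elements in promoters. In parallel, the SIK kinases hold the CRTC coactivators in the cytosol bound to 14-3-3 proteins, and protein kinase A inhibits the SIKs while calcineurin dephosphorylates the CRTCs, so that these enter the nucleus and bind CREB. Several components, among them SIK1 and a short repressor form of CREM made from an internal promoter, are themselves known CREB targets and act as negative feedback.

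Values are normalized counts, that is, the reads of a gene divided by 1 size factor per sample. Summed over the reported genes, samples held 18116816 to 21488793 reads. Log2 fold changes are isoproterenol over untreated, on the log2(normalized count + 1) scale. The labels do not say that replicates came from separate cultures, so p-values measure the spread between these samples, which may be technical, and in bulk RNA fewer cells and less RNA per cell cannot be told apart. *RBM12* itself was at 244.3, 278.7 and 266.9 normalized counts in untreated and 194.6, 237.6 and 232.8 in isoproterenol samples, a log2 fold change of -0.25 (SE 0.11). Its depletion could not be assessed, since samples with a control guide were not analysed here. Of 12 markers listed for glutamatergic neurons, most of them general neuronal genes, all 12 were detected. SLC17A6 and SLC17A7, the vesicular glutamate transporters, were at 12393 to 14709.9 and 2968 to 3318 normalized counts, although TUBB3 lay at only 69.2 to 94.4. The list summed to 676046 to 721215 in untreated and 660735 to 677286 in isoproterenol samples. Most of this came from the neurofilament genes NEFL and NEFM, so the sum does not measure glutamatergic identity. With the replicate block described below, 3 of the 12 passed FDR 0.05 (limma), namely NEFL (log2 fold change -0.045, adjusted p 2.68e-04) downward and BSN (0.15, 9.28e-05) and GRIN1 (0.29, 2.67e-04) upward. The 3 GABAergic markers summed to 55.3 to 59.99 in untreated and 66.9 to 79.0 in isoproterenol samples, and the 2 astrocyte markers analysed of 5 listed to 159.8 to 175.1 and 134.4 to 156.8. The pluripotency markers analysed (3 of 5) summed to 51.2 to 84.2 and 59.9 to 71.5. Of the 5 genes listed for proliferation, MKI67, TOP2A and CDK1 were not among the reported genes. The other 2, CCNB1 and SOX2, summed to 112.2 to 147.2 and 124.1 to 144.7. SOX2, a progenitor factor rather than a marker of cycling, was at 0 in 5 of the 6 samples, so this sum was almost all CCNB1. None (0) of the GABAergic, astrocyte, pluripotency or proliferation markers tested passed FDR 0.05 by limma with or without the block, and within the GABAergic list GAD1 (0.74) and GAD2 (0.49) differed in sign from SLC32A1 (-0.38). The part of these marker values in the results below was not tested.

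Promoter sequences are shown for CREM, SIK1 and CRTC1, the members with an unadjusted p under 0.05 in the comparison below. RefSeq windows (GRCh38.p14; 250 bases before to 50 after a transcription start) were found for 9 of the 10 members, 18 windows in all. They were searched on both strands for the full cAMP response element TGACGTCA and for its shorter form, TGACG or CGTCA, which the full element contains. The full element occurred in 649 of 35116 RefSeq windows (1.85%), and the shorter form in 8622 (24.55%). Among the members, the full element was found only at CREM, in 2 overlapping windows of its 7. These belong to internal starts, and the first and last CREM starts lie 69056 bases apart. In the second of them (chr10:35195652-35195951, + strand) the element began 50 bases before the start. The SIK1 window (chr21:43427082-43427381, - strand) held no full element and 3 copies of CGTCA, beginning 217, 137 and 126 bases before the start. The CRTC1 window (chr19:18683430-18683729, + strand) matched neither form. Capitals mark the matches in the following lines.
CREM internal start: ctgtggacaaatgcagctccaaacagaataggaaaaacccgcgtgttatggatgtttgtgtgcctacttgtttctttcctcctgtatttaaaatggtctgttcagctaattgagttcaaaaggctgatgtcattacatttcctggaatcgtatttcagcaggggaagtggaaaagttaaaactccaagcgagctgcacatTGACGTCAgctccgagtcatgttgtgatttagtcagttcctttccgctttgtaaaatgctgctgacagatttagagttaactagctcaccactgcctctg
SIK1: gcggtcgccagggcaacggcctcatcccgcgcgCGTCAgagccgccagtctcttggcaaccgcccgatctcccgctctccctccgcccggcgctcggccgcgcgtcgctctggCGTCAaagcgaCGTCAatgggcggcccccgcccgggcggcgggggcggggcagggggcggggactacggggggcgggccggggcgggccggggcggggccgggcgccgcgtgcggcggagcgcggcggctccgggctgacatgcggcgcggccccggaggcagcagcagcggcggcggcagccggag
CRTC1: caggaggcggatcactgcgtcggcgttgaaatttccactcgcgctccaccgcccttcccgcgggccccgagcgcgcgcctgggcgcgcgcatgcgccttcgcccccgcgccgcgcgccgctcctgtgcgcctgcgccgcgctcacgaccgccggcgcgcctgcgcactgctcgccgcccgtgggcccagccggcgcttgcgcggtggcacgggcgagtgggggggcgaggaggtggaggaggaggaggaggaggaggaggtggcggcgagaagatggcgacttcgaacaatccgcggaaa
The shorter form was present at 6 members, namely CREM, CRTC3, CREBBP, SIK1, SIK2 and SIK3, in 8 of the 18 windows, and absent from the windows of CREB1, ATF1 and CRTC1. A match describes the letters of the window and does not show that a factor binds there.

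The members differed widely in level. Per kilobase of exon, CRTC1 was the most abundant of the 10 at 245.0 normalized counts in untreated neurons, with a range of 207.2 to 269.0 over the 6 samples. CREBBP (161.9) and SIK3 (159.0) followed, and their ranges over the 6 samples overlapped, so their order was not resolved. SIK2 (125.0), CREB1 (84.2), CRTC2 (61.1) and CRTC3 (51.9) came next, each with a range that did not reach that of its neighbour in the order. CRTC2 (lowest sample 52.9) and CRTC3 (highest 52.6) were barely apart. Lengths are the union of all annotated exons of a gene, so the order also depends on the annotation, which the spread between samples does not show. ATF1 (43.9) and CREM (37.4) again overlapped. SIK1 was the lowest, at 7.32 in untreated neurons and 6.81 to 15.4 over the 6 samples, but this level is uncertain because most of its sequence is duplicated in the reference, as described further on. Among paralogs, the highest per kilobase were CREB1 of the CREB factors, CRTC1 of the CRTC coactivators and SIK3 of the kinases.

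**Figure D1:**
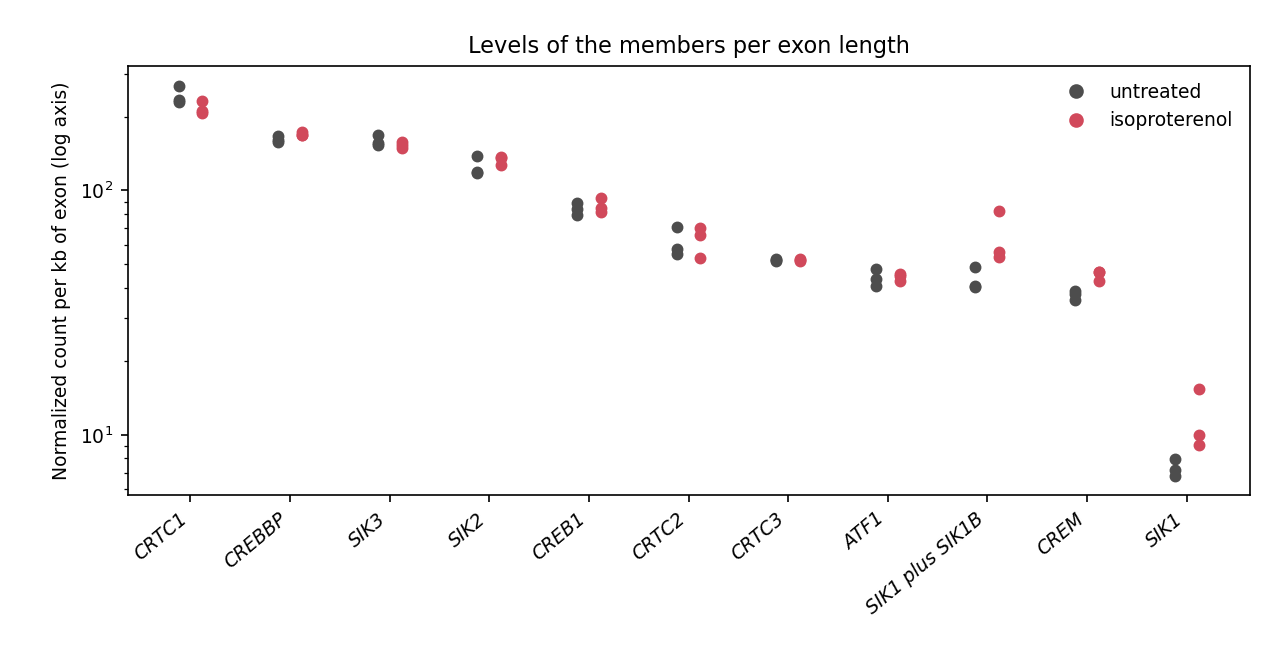
Normalized counts per kilobase of exon (vertical axis, log scale) for the 10 members and for SIK1 together with its annotated copy SIK1B, with 1 point per sample in untreated and isoproterenol neurons (3 each). CRTC1 lies highest at 245.0 in untreated neurons and SIK1 lowest at 7.32, and adding SIK1B places SIK1 at 43.0, near ATF1.

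With isoproterenol, 8 members were higher and 2 lower by log2 fold change, with a median of 0.042 against 0.0015 for all tested genes. Within the pairs of same-numbered samples the median of the members was 0.045, 0.039 and 0.039. None (0) of the 10 passed FDR 0.05 by limma (smallest adjusted p 0.536), edgeR or DESeq2, when 0.0165% of all tested genes passed by limma. CREM, CRTC1 and SIK1 had an unadjusted p under 0.05 (3 of 10 by limma, against 7.68% of all tested genes, and also 3 by edgeR and by DESeq2). The labels do not state a pairing, and the replicate numbers were taken to pair the samples from correlations in these same data (0.269, 0.493 and 0.388). Correlations between differently numbered samples were not computed, and every call made with the block rests on this pairing. With replicate number as a block 4.88% of tested genes passed by limma, among them 1 member, CRTC1. By edgeR with the block, 5.39% of tested genes and again only CRTC1 of the members passed. CREM, SIK1 and CREBBP were higher in every isoproterenol sample than in every untreated one (3 of 10, against 6.73% of all tested genes), and 0 members were lower without overlap (6.19% of all genes). CRTC1 was lower in all 3 pairs, and 6 members moved in both directions over the pairs.

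**Figure D2:**
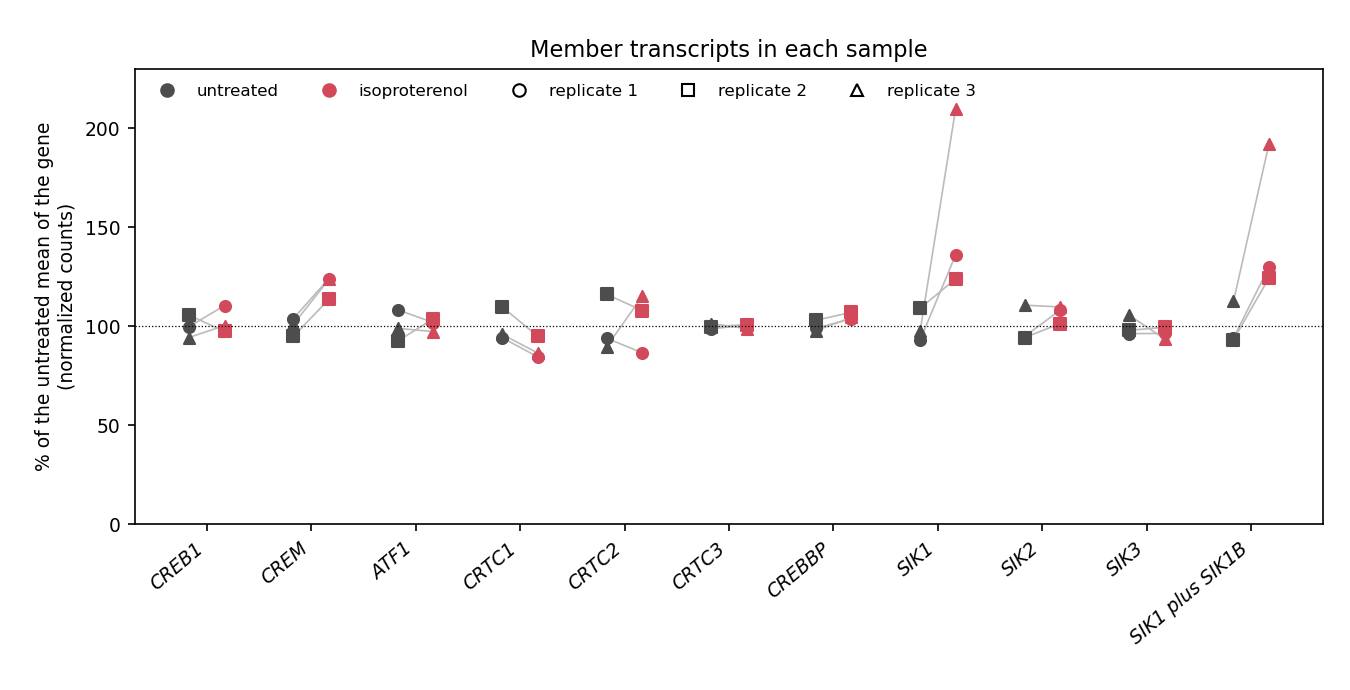
Level of each member in each sample as a percentage of the untreated mean of that gene (vertical axis), from normalized counts, for 3 untreated (grey) and 3 isoproterenol (red) samples, with marker shapes for the replicate number, lines joining same-numbered samples and a dotted line at the untreated mean. CREM, SIK1 and CREBBP are the 3 genes whose isoproterenol points all lie above the untreated ones, and SIK1 has the widest spread.

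Among the CREB factors, CREM, which yields both activators and repressors of cAMP-responsive promoters, was higher with isoproterenol. CREM (ENSG00000095794, GRCh38, chr10:35126791-35212958, + strand) was at 221.4, 202.2 and 215.2 normalized counts in the untreated group (replicates 1 to 3) and at 264.4, 242.2 and 263.6 in the isoproterenol group. The groups did not overlap, and replicate 2 was the lowest of each. The mean went from 212.9 ± 9.76 to 256.7 ± 12.6 (SD, n = 3 per group), a log2 fold change of 0.27 (SE 0.10, 95% interval 0.054 to 0.48). Within the pairs the log2 differences were 0.26, 0.26 and 0.29. CREM did not pass FDR 0.05 (limma adjusted p 0.558 unblocked and 0.102 with the replicate block). The table counts reads per gene, so the short repressor form made from an internal promoter cannot be separated from the other CREM transcripts. The exons of CREM share 191 bases (3.35% of their length) with CUL2 and 205 with a long noncoding RNA, both on the opposite strand. Whether the authors counted by strand is not stated, so reads in these bases may belong to either gene.

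CREB1, the main cAMP-responsive activator, and ATF1, its close relative, overlapped between the groups. CREB1 (ENSG00000118260, chr2:207529737-207605988, + strand) was at 1020.2, 1079.9 and 964.1 normalized counts in untreated and 1129, 995.3 and 1026 in isoproterenol samples. Its log2 fold change was 0.039 (SE 0.065, 95% interval -0.096 to 0.17, limma adjusted p 0.928). ATF1 (ENSG00000123268, chr12:50763710-50821162, + strand) was at 134.7, 115.1 and 123.1 in untreated and 126.7, 129.2 and 121.0 in isoproterenol samples, which also overlapped. Its log2 fold change was 0.018 (95% interval -0.27 to 0.30, limma adjusted p 0.986), an interval that includes the value of CREM. The log2 ratio of CREM to CREB1 was -2.26 ± 0.14 in untreated and -2.03 ± 0.067 in isoproterenol samples, and that of CREM to ATF1 went from 0.77 ± 0.053 to 1.02 ± 0.11 (SD, n = 3 per group). Both ratios were higher in all 3 isoproterenol samples, and the difference for CREM to CREB1 was 0.23, or 0.15 without untreated replicate 2. A two-sided exact permutation test gave p = 0.1 for each, which is the smallest p that 3 samples against 3 allow, and 0.1 after adjustment over the 4 ratios tested.

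CRTC1, the coactivator enriched in brain that carries calcium and cAMP signals from synapse to nucleus, was the 1 member lower in every pair. CRTC1 (ENSG00000105662, chr19:18683678-18782333, + strand) was at 1608, 1873 and 1638 normalized counts in the untreated group (replicates 1 to 3) and at 1443, 1621 and 1476 in the isoproterenol group. The groups overlapped, because replicate 2 was the highest of both groups and its isoproterenol value exceeded untreated replicate 1. Within each pair the isoproterenol sample was lower, by log2 differences of -0.16, -0.21 and -0.15. The mean went from 1706 ± 145.4 to 1513 ± 95.01 (SD, n = 3 per group), a log2 fold change of -0.17 (SE 0.063, 95% interval -0.30 to -0.039, limma adjusted p 0.536). With the replicate block the SE was 0.040 and the interval -0.25 to -0.092, and CRTC1 fell past FDR 0.05 (adjusted p 0.00250 by limma and 9.85e-04 by edgeR). This call held without pair 1 (limma adjusted p 0.0136) and without pair 3 (0.0192), and was lost without pair 2 (0.0615), where the blocked log2 fold change was -0.15. In the fit without the block, it was -0.10 without untreated replicate 2.

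The other coactivators overlapped between the groups. CRTC2 (ENSG00000160741, chr1:153947669-153958615, - strand), the form known for hepatic glucose control, was at 206.8, 255.5 and 197.6 normalized counts in untreated and 190.6, 237.6 and 253.4 in isoproterenol samples. It was lower in pairs 1 and 2 and higher in pair 3, with a log2 fold change of 0.045 (95% interval -0.22 to 0.31, limma adjusted p 0.962). CRTC3 (ENSG00000140577, chr15:90529923-90645345, + strand) was the steadiest member, at 554.5, 559.3 and 569.0 in untreated and 563.8, 566.3 and 554.9 in isoproterenol samples. Its log2 fold change was 0.0020 (95% interval -0.14 to 0.15, limma adjusted p 0.996). CREBBP (ENSG00000005339, chr16:3725054-3880713, - strand), the histone acetyltransferase that binds phosphorylated CREB, was at 2483, 2584 and 2451 in untreated and 2599, 2682 and 2619 in isoproterenol samples. Every isoproterenol value was above every untreated one, by a margin that was small beside the level. The log2 fold change was 0.072 (95% interval -0.024 to 0.17, limma adjusted p 0.748 unblocked and 0.253 with the replicate block), and the pairs differed by 0.066, 0.054 and 0.096.

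**Figure D3:**
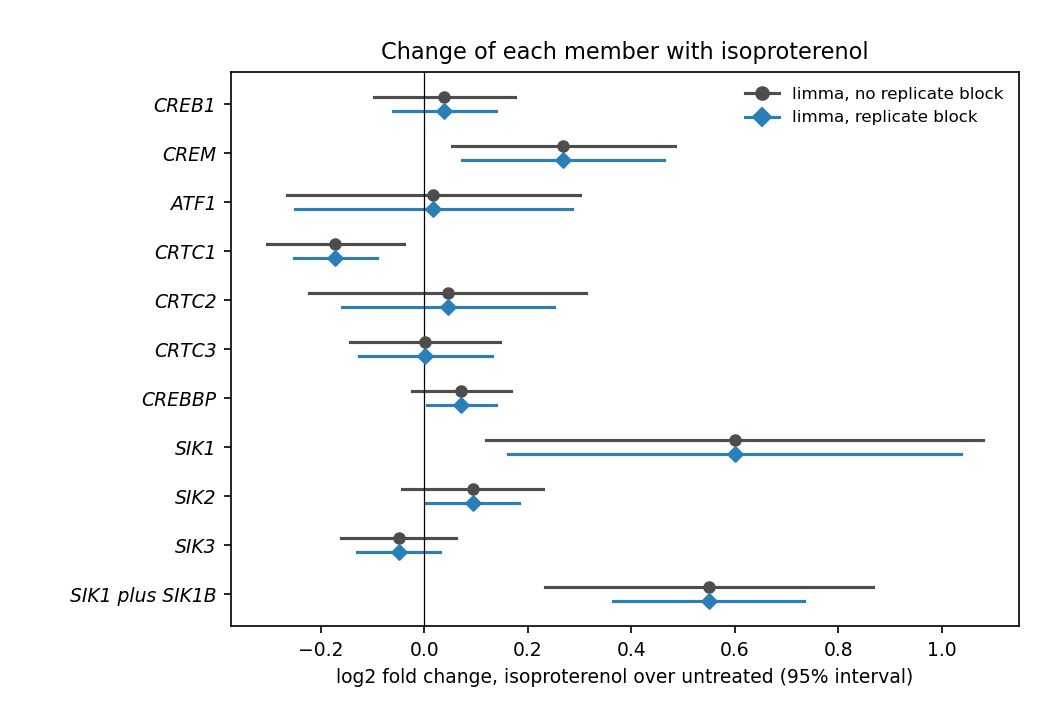
Log2 fold change of each member, isoproterenol over untreated (horizontal axis), with 95% intervals from limma without (circles) and with (diamonds) the replicate block, 3 samples per group. The intervals of CREM, CRTC1, SIK1 and SIK1 plus SIK1B lie off 0 in both fits, and the block narrows that of CRTC1 to -0.25 to -0.092.

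Among the kinases, SIK1, a cAMP-induced gene in many tissues whose product restrains the CRTCs, had the largest log2 fold change of the 10 members. SIK1 (ENSG00000142178, chr21:43414483-43427131, - strand) was at 35.5, 41.6 and 37.2 normalized counts in the untreated group (replicates 1 to 3) and at 51.9, 47.3 and 80.01 in the isoproterenol group. The groups did not overlap, isoproterenol replicate 3 was far above the rest, and replicate 2 moved least. These values rest on 34, 43 and 36 reads in untreated and 52, 41 and 78 in isoproterenol samples. In replicate 2 the isoproterenol sample held fewer SIK1 reads than the untreated one, but its size factor was also smaller (0.867 against 1.033). Its normalized value was the higher of the 2 after this scaling. The mean went from 38.1 ± 3.15 to 59.7 ± 17.7 (SD, n = 3 per group), a log2 fold change of 0.60 (SE 0.23, 95% interval 0.12 to 1.08, limma adjusted p 0.557 unblocked and 0.105 with the replicate block). Without isoproterenol replicate 3 it was 0.37.

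SIK1 shares most of its sequence with SIK1B (ENSG00000275993, chr21:6111131-6123778, + strand), which GENCODE 44 annotates as an artifactual duplication whose real copy is SIK1. Of 5138 windows of 100 bases in the exons of SIK1, 4126 (80.3%) occur in SIK1B, so the counting could divide the reads of 1 gene over both entries. SIK1B held more reads, with 175.4, 167.4 and 215.2 normalized counts in untreated and 239.5, 231.8 and 350.8 in isoproterenol samples. Of the reads of both entries, the share in SIK1 ran from 14.8% (untreated replicate 3; 95% Wilson interval 10.9% to 19.7%, counting error only) to 19.9% (untreated replicate 2; 15.1% to 25.7%). The intervals overlapped, and the share did not separate the groups.

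Added together, SIK1 and SIK1B were at 210.9, 209.0 and 252.4 normalized counts in untreated and 291.4, 279.1 and 430.8 in isoproterenol samples. The groups did not overlap, and each isoproterenol sample was above its partner, by log2 differences of 0.46, 0.42 and 0.77. The mean went from 224.1 ± 24.5 to 333.8 ± 84.3 (SD, n = 3 per group), a log2 fold change of 0.55 (SE 0.15, 95% interval 0.23 to 0.87). The sum did not pass FDR 0.05 without the block (adjusted p 0.335 by limma, 0.345 by edgeR and 0.0841 by DESeq2). With the block, where 4.88% of genes passed, it rose past FDR 0.05 (95% interval 0.37 to 0.73, adjusted p 6.44e-06 by limma and 6.87e-07 by edgeR). That call held without pair 1, 2 or 3 (limma adjusted p 2.28e-05, 2.40e-06 and 0.0121). Without isoproterenol replicate 3 and without the block, the log2 fold change was 0.35. The sum is an alternative chosen after the values were seen, and per kilobase it placed SIK1 at 43.0 normalized counts in untreated and 64.1 in isoproterenol neurons, below SIK2 and SIK3 in both.

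**Figure D4:**
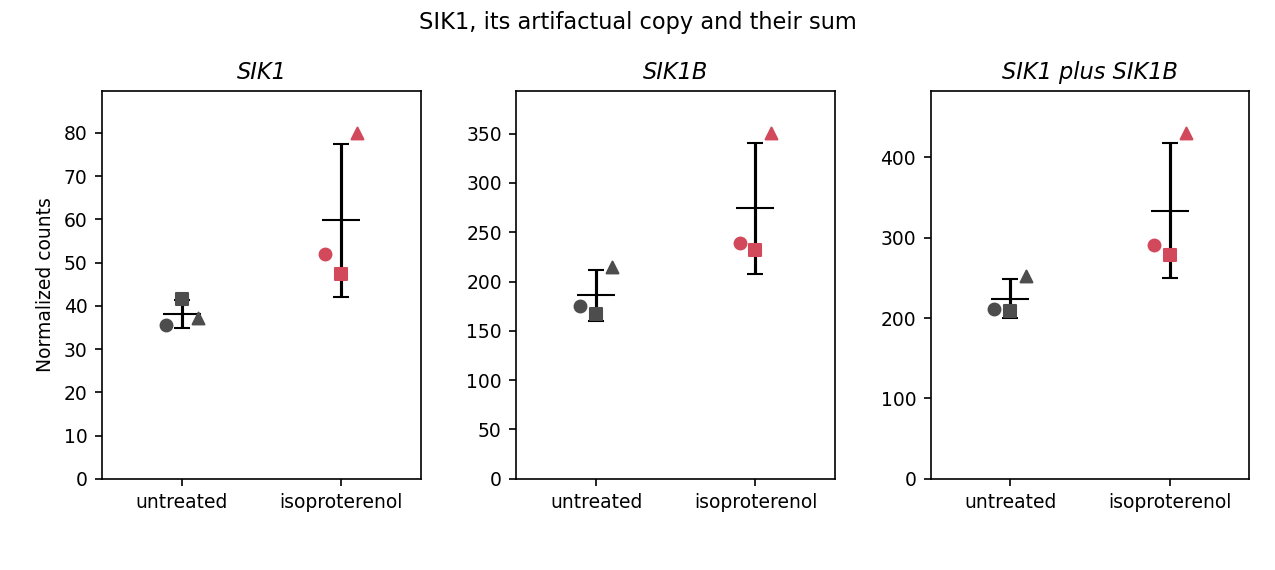
Normalized counts (vertical axes, starting at 0) of SIK1, of its annotated copy SIK1B and of their sum in each sample of untreated and isoproterenol neurons, with circles, squares and triangles for replicates 1 to 3 and black bars for the mean and SD of 3 samples. The 3 panels show the same order of samples in the isoproterenol group, with replicate 3 highest, and the sum runs from 209.0 to 252.4 in untreated and from 279.1 to 430.8 in isoproterenol neurons.

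SIK2 and SIK3, the broadly expressed kinases that phosphorylate CRTCs and class IIa histone deacetylases, overlapped between the groups. SIK2 (ENSG00000170145, chr11:111602449-111730855, + strand) was at 1155, 1149 and 1348 normalized counts in untreated and 1317, 1234 and 1337 in isoproterenol samples, with a log2 fold change of 0.094 (95% interval -0.042 to 0.23, limma adjusted p 0.776). It was higher in pairs 1 and 2 (0.19 and 0.10) and near its partner in pair 3 (-0.012), and its log2 fold change was 0.17 without untreated replicate 3 and 0.054 and 0.058 without untreated replicates 2 and 1. SIK3 (ENSG00000160584, chr11:116843402-117098437, - strand) was at 1673, 1701 and 1834 in untreated and 1674, 1729 and 1627 in isoproterenol samples. Pair 3 alone differed by more than 0.1 on the log2 scale (-0.17), and the log2 fold change was -0.049 (95% interval -0.16 to 0.062, limma adjusted p 0.874). The log2 ratio of SIK1 to SIK2 was higher with isoproterenol by 0.51 and that of SIK1 to SIK3 by 0.65, without overlap between the groups. The differences ran from 0.077 to 1.10 and from 0.16 to 1.26 over the pairs, lowest in pair 2 and highest in pair 3. Without isoproterenol replicate 3 the differences were 0.30 and 0.40. These ratios use the SIK1 entry alone, and with the SIK1B reads added the differences were 0.46 and 0.60. The exact permutation p was 0.1 for each, the smallest possible, and 0.1 adjusted over the 4 ratios.

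The wider pathway was followed through a list of 66 partners of the members, of which 65 were tested. Of these, 30 were higher and 35 lower with isoproterenol, with a median log2 fold change of -0.0040. None (0) passed FDR 0.05 by limma (smallest adjusted p 0.509, with 3 at an unadjusted p under 0.05), edgeR or DESeq2. With the replicate block 4 rose and 0 fell (limma), namely PPP1CC, HDAC4, ATF2 and RPS6KA2. Of all tested genes 4.88% passed with the block, 511 of them higher and 374 lower. The groups did not overlap for 7 partners that were higher (6.73% of all genes) and 4 that were lower (6.19%).

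PPP1CC, a catalytic subunit of protein phosphatase 1, which dephosphorylates CREB, was at 2131, 1835 and 2191 normalized counts in untreated and 2509.5, 2113 and 2414 in isoproterenol samples. The groups overlapped through the low values of replicate 2, while each pair was higher, and the log2 fold change was 0.19 (SE 0.074, limma adjusted p 0.594 unblocked and 5.24e-05 with the block). It passed with the block without pair 1, 2 or 3 as well. HDAC4, a class IIa deacetylase that the SIKs keep in the cytosol, was at 450.1, 427.7 and 415.9 in untreated and 497.9, 536.3 and 478.0 in isoproterenol samples, which did not overlap (log2 fold change 0.22, limma adjusted p 0.0454 with the block). ATF2, a related bZIP factor activated by stress kinases, had a log2 fold change of 0.10 and RPS6KA2, a ribosomal S6 kinase of the ERK pathway, 0.064 (limma adjusted p 0.0451 and 0.0314 with the block, where edgeR gave 0.0342 and 0.0638). HDAC4, ATF2 and RPS6KA2 lost the call whenever any 1 pair was left out.

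By role, the 12 kinases of CREB had a median log2 fold change of -0.012, with 5 higher and 7 lower. The 10 kinases of the CRTCs or upstream of the SIKs, among them STK11, had a median of 0.0091 (5 higher, 5 lower), and the 12 phosphatases, calcineurin subunits included, 0.0011 (6 and 6). The other 12 CREB/ATF family factors had a median of 0.020 (7 higher, 5 lower), the 7 other coactivators and partners of CREB -0.0043 (2 and 5), and the 6 14-3-3 proteins -0.0080 (1 and 5). The 6 other SIK substrates and CRTC turnover factors had a median of 0.066 (4 higher, 2 lower). Except for the 4 genes above, no partner in any role passed FDR 0.05 with the block on all 3 pairs. Without pair 2, YWHAE, a 14-3-3 protein named here after its values were seen, passed downward (log2 fold change -0.077, limma adjusted p 0.0308, against 0.0804 with all pairs). The remaining extremes were FHL2 (0.47, from a mean of 6.16 normalized counts in untreated neurons; limma adjusted p 0.871) and DET1 (0.34, from 8.13; 0.913) upward, and CREB3L4 (-0.46; 0.647) and CAMK1D (-0.12; 0.685) downward. CREB3L4 was at 53.3, 62.9 and 45.5 in untreated and 39.9, 41.5 and 34.9 in isoproterenol samples, without overlap.

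**Figure D5:**
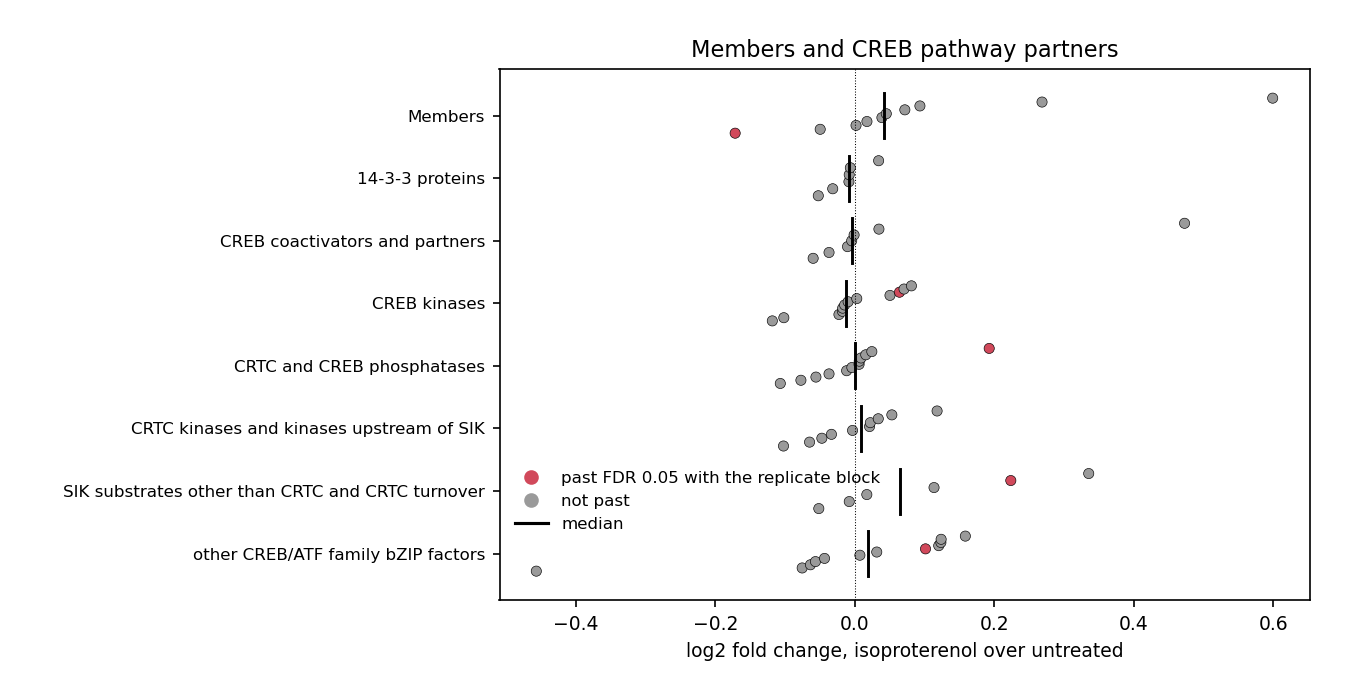
Log2 fold change, isoproterenol over untreated (horizontal axis), of the 10 members and of 65 pathway partners by role, with 1 point per gene and a bar at the median of each role. The red points passed FDR 0.05 by limma with the replicate block, the role medians run from -0.012 to 0.066, and the red points are CRTC1 among the members and PPP1CC, HDAC4, ATF2 and RPS6KA2 among the partners.

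The genes whose levels most resembled those of CREM over the 6 samples, among 11587 genes averaging 100 normalized counts or more, were KIAA1549 (Pearson r 0.996), PLCG1 (0.996) and H2AC6 (0.995). For SIK1 they were STARD13 (0.995), HIC1 (0.994) and ZNF236 (0.988). These correlations describe 6 samples that share their libraries and groups. The genes were chosen by them, so the sample patterns shared with CREM or SIK1 below follow from the choice. H2AC6, a histone H2A gene, was at 277.8, 228.4 and 250.3 normalized counts in untreated and 393.1, 340.2 and 385.7 in isoproterenol samples, with replicate 2 the lowest of each group as for CREM. STARD13 was at 102.3, 110.3 and 105.5 in untreated and 131.7, 117.6 and 170.3 in isoproterenol samples, with isoproterenol replicate 3 the highest as for SIK1.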

How the data were processed

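Poly(A) RNA-seq libraries were made with a directional kit. Per the study's methods and the labels, the authors aligned reads to GRCh38 with STAR, counted reads per gene with featureCounts (Subread) and normalized with DESeq2. Versions, the annotation release and the strand setting are not given in the sources used here. The deposited signal is the read count of a gene divided by 1 size factor per sample (0.867 to 1.033), and every value above 0 (100%) was a whole multiple of the step of its column within a tolerance of 0.01, from which reads were recovered. Summed over the reported genes, these came to 18116816 to 21488793 reads per sample, which leaves out reads not assigned to those genes.

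Genes with more than 5 reads in at least 4 samples were kept, as in the study's methods. Groups and replicate numbers came from the sample titles. Genes were tested with limma 3.58.1 (R 4.3.3; trend and robust options) on log2(normalized count + 1), two-sided, with Benjamini-Hochberg adjustment over all 18130 genes. Alternatives were a replicate block, edgeR 4.0.16 and DESeq2 1.42.0 on the recovered reads, other pseudocounts, filters and scalings, and each sample left out. The reads of SIK1 and SIK1B were also summed. After subtraction of the group means, same-numbered samples had correlations of 0.269, 0.493 and 0.388 over 11587 genes, all above the limit of 0.1, so the replicate numbers were taken to pair the samples, as the labels number them without saying why. The fits were also run on simulated data, in which only well-counted genes were changed, each by more than any member changed here. That run does not show how the fits treat changes as small as those of the members or counts as low as those of SIK1.

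Positions and exon lengths came from GENCODE 44 and promoter windows from RefSeq. Named genes were the members, RBM12, the partners past FDR 0.05 with or without the block, of the other partners the 2 highest and 2 lowest by log2 fold change, and the 3 genes most correlated with CREM and with SIK1. The members and lists were chosen with earlier results of these data known.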

Additional observations from a re-analysis of the deposited data

How the results depend on the processing

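Under the 16 alternatives named in the methods, and those of 17 more (added after seeing the data) that refitted them, CREM, CREBBP, SIK1 and SIK2 were higher and CRTC1 lower wherever they were tested. Requiring an average of 50 normalized counts removed SIK1 alone of the members. Against 3 genes past FDR 0.05 in limma, DESeq2 gave 21, the replicate block 885 in limma and 977 in edgeR, leaving out 1 sample 2 to 67, and the block without pair 1, 2 or 3 gave 531, 665 and 456. Against 0 members, the replicate block gave 1 in limma and in edgeR, and 1, 0 and 1 without pair 1, 2 or 3. With the SIK1B reads added to SIK1, the block gave 2 in limma and in edgeR, and 2, 1 and 2 with a pair left out. Against 0 partners, the block gave 4 in limma and 3 in edgeR, and 1, 2 and 1 with a pair left out. The median log2 fold change of the members was 0.046 with total-count scaling, 0.012 to 0.067 with 1 sample left out, and 0.058, 0.085 and 0.030 in the block without pair 1, 2 or 3. Members near 0 changed direction with single samples left out: CREB1 ran from -0.014 to 0.080, ATF1 from -0.036 to 0.077, CRTC2 from -0.038 to 0.17 and CRTC3 from -0.0063 to 0.012. SIK3 ran from -0.076 to -0.0092 and stayed below 0. In the block, CREB1 was at -0.014 without pair 1, ATF1 at -0.056 without pair 2, CRTC2 at -0.11 and SIK3 at 0.012 without pair 3, and CRTC3 at -0.0091 and -0.0060 without pair 1 and 2. CRTC3 was also below 0 by edgeR (-0.00061, and -0.00049 with the replicate block), DESeq2 (-0.00039) and TMM scaling (-0.00043). The block changed the call of CRTC1 and, with the SIK1B reads added, of SIK1, and of no other member. The causes of these differences were not tested. With 34 to 78 reads per sample, SIK1 counted alone has the widest interval of the members.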
